A study of Saccharomyces cerevisiae with 71 samples.

Results

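Arginine was removed from the medium of yeast cultures while ornithine, the metabolite from which cells build arginine, was supplied, and charging of tRNA was followed on microarrays. The members were chosen by the sample labels alone. They are the 8 charging arrays of this experiment, out of 68 charging arrays in the series. Of these, 5 came from the gcn2Δ strain and 3 from the wild-type strain. They held 5 arrays of 4 depleted cultures, out of 46 such arrays of 26 depleted cultures in the series. Each array read the same 41 probes, 4 for tRNAs of arginine and 37 for other tRNAs. The gcn2Δ strain (MATα gcn2::URA3 LEU2 TRP1) is isogenic to the wild-type strain (MATα URA3 LEU2 TRP1), both are prototrophic and share one parent, and both were grown in synthetic complete medium. A culture of each strain was sampled 15 and 60 min after the shift to medium with ornithine and without arginine, and the culture of the same strain at 0 min in complete medium served as its reference. The medium, its dextrose and all amino acids other than arginine were shared by these cultures. Arrays of tRNA do not read the GCN2 gene, so the deletion could not be checked on these data.

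Gcn2p is a protein kinase that binds uncharged tRNA and phosphorylates the translation initiation factor eIF2α. Phosphorylated eIF2α favours translation of the GCN4 mRNA, and the Gcn4p activator then raises transcription of amino acid biosynthetic genes, those of arginine among them. Yeast makes ornithine from glutamate in the mitochondrion. Carbamoylation turns ornithine into citrulline, aspartate is joined to citrulline to give argininosuccinate, and this is split into arginine and fumarate. Arginase runs the other way and splits arginine into ornithine and urea, and ornithine also feeds the synthesis of polyamines and proline.

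Charging was read from the sensitivity of a free tRNA 3′ end to periodate. An amino acid protects that end, so after oxidation and deacylation only a tRNA that had been charged can be ligated to a fluorescent oligonucleotide. Charged tRNA and total tRNA of a culture were labelled with different dyes and hybridized together. The value of a probe is the ratio of charged to total tRNA in a culture, divided by the same ratio in its reference. It is given below as its log2, called the log2 charging change, with 0 meaning the charging of the reference and -1 meaning 2.00-fold lower charging. Each array was scaled to a median ratio of 1 over the 41 probes, so every value is relative to the middle tRNA of its array, and a shift shared by all tRNAs could not be seen. Every probe of every reference array holds exactly 1, so charging at 0 min could not be compared between the strains.

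Each strain and time point was represented by 1 culture, and neither labels nor methods say if each time point had a flask of its own. Total tRNA was labelled with Cy3 on 1 array of every culture. The dyes were swapped only for the gcn2Δ culture at 60 min and for its reference, which adds 1 array with total tRNA in Cy5. The 15- and 60-min Cy3 arrays of a strain share a reference array, and the Cy5 array has a reference array of its own. Tests were run on Cy3 arrays, with the spread between 6 cultures of the same time point in the His, Trp and Trp/Phe/Tyr depletion experiments, which kept arginine in the medium, as the error. The median SD of a probe over these cultures was 0.23 at 60 min and 0.24 at 15 min. Their media lacked amino acids of the His, Trp, Phe or Tyr probes, so these probes could be low or variable in the comparison. Trp-3 read -3.81 in the gcn2Δ Trp culture at 60 min, and the SE of its difference was 1.37. A tRNA is called changed where the adjusted p of limma (two-sided, Benjamini-Hochberg over the 41 probes) is below 0.05.

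In the gcn2Δ strain, charging of the tRNAs of arginine was at the level of the reference 15 min after the shift and below it after 60 min. At 60 min it was higher with ornithine than in the same strain depleted of arginine without ornithine, and all 4 Arg probes passed the test of that difference. In the wild-type strain all 4 stayed within 0.38 of the reference at both times. The files number the probes from Arg-9 to Arg-12, and which Arg anticodon each one reads is not given in them.

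At 15 min in gcn2Δ cells with ornithine, the log2 charging change was 0.07 for Arg-12, -0.06 for Arg-11, -0.26 for Arg-10 and 0.16 for Arg-9. Their mean was -0.02 (SD over the probes 0.18, n = 4 probes of 1 array). Without ornithine, the gcn2Δ culture at 15 min read -0.85 for Arg-12, -0.94 for Arg-11, -0.61 for Arg-10 and -1.46 for Arg-9 on its Cy3 array, and the mean of the 4 was -0.96 there and -0.88 on its Cy5 array. Every Arg probe was thus higher with ornithine than on either array without it.

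At 60 min in gcn2Δ cells with ornithine, the Cy3 array read -0.60 for Arg-12, -1.06 for Arg-11, -1.19 for Arg-10 and -1.15 for Arg-9. These 4 probes were the lowest of the 41 on that array. Their mean was -1.0 (SD over the probes 0.27), which is 2.00-fold below the reference. The Cy5 array of the same culture read -0.71 for Arg-12, -2.22 for Arg-11, -1.62 for Arg-10 and -2.84 for Arg-9, with a mean of -1.85 (SD over the probes 0.91), which is 3.60-fold below the reference. Both orientations put all 4 Arg tRNAs below the reference, and they differed in how far below. The gap between the arrays was widest for Arg-9, at 1.69, and the mean over both arrays was -1.42, or 2.68-fold lower.

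Without ornithine, Arg charging in gcn2Δ cells at 60 min was lower still. The Cy3 array read -2.30 for Arg-12, -3.08 for Arg-11, -3.30 for Arg-10 and -2.97 for Arg-9, with a mean of -2.92, or 7.54-fold below the reference. The Cy5 array read -2.48, -3.18, -3.32 and -3.45 for the probes in the same order, with a mean of -3.11, or 8.63-fold below. The values of Arg-10, Arg-11 and Arg-12 with ornithine lay above those without it on both arrays by more than 0.9, and those of Arg-9 by 1.82 on Cy3 arrays and 0.61 on Cy5 arrays.

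**Figure D1:**
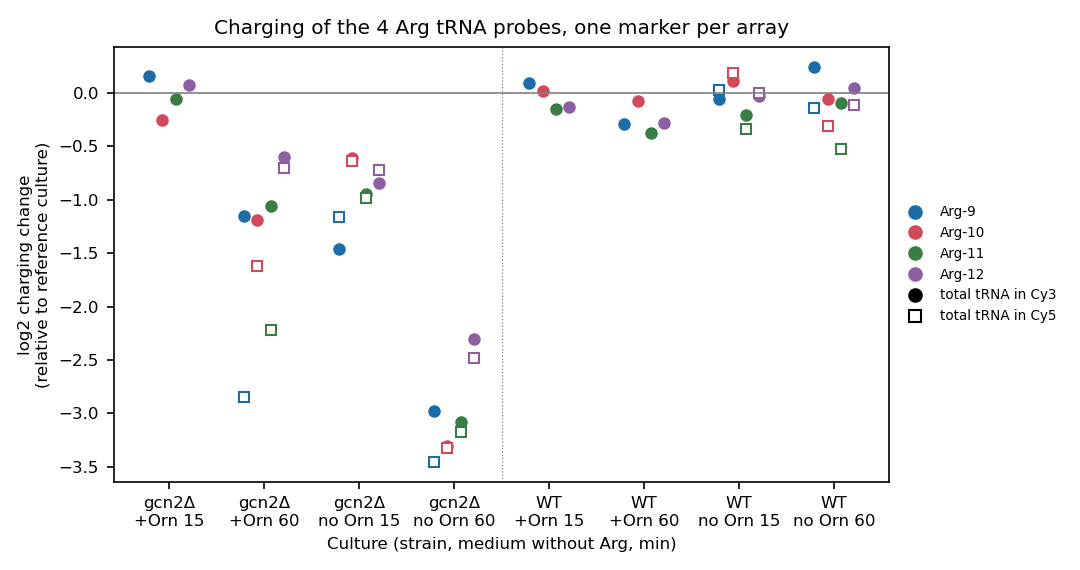
Log2 charging change of the 4 Arg probes (vertical axis) in each culture of the 2 experiments depleted of arginine (horizontal axis, strain, medium and minutes), with 1 marker per array, filled for total tRNA in Cy3 and open for Cy5. The gcn2Δ culture with ornithine lies near 0 at 15 min and between -0.60 and -2.84 at 60 min, while the gcn2Δ culture without ornithine lies between -2.30 and -3.45 at 60 min and the wild-type cultures lie near 0.

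The 60-min gcn2Δ culture with ornithine was first set against the 6 comparison cultures, to ask which tRNAs left the range that other media give. Of 41 probes, 1 was called (2.44%), and it was Arg-10, which fell by 1.17 relative to the comparison cultures (SE 0.21, 95% interval -1.67 to -0.68, adjusted p = 0.0282 from limma). Its value of -1.19 lay below all 6, which ran from -0.25 to 0.31. Arg-9 differed by -1.04 (SE 0.29, interval -1.72 to -0.36) and Arg-11 by -0.96 (SE 0.28, interval -1.62 to -0.31), each with an adjusted p of 0.13, and both lay below all 6 cultures. Arg-12 differed by -0.52 (interval -1.25 to 0.22, adjusted p = 0.834). The call of Arg-10 rested on the choice of comparison cultures. It was lost without the His, the Trp or the Trp/Phe/Tyr experiment, with adjusted p of 0.152, 0.0838 and 0.0842. With both arrays of the culture averaged, Arg-9, Arg-10 and Arg-11 were called, at differences of -1.87, -1.43 and -1.60 (adjusted p = 0.00126, 0.00272 and 0.00126 from limma). With the Cy5 array turned before averaging, an alternative chosen after its values were seen, none was called and the differences were 0.98, 0.18 and 0.62 in the same order.

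The difference between the media was then tested by subtracting the culture without ornithine from the culture with it, at the same strain and time. These cultures came from separate experiments, each with reference arrays of its own. Ornithine could thus not be told apart from the experiment, and the comparison cultures supplied only the error. At 60 min in the gcn2Δ strain 4 of 41 probes were called (9.76%), and they were the 4 Arg probes, each higher with ornithine. The difference was 2.11 for Arg-10 (SE 0.28, interval 1.46 to 2.76, adjusted p = 0.00359), 2.02 for Arg-11 (SE 0.37, interval 1.17 to 2.87, adjusted p = 0.0141), 1.82 for Arg-9 (SE 0.38, interval 0.93 to 2.71, adjusted p = 0.023) and 1.70 for Arg-12 (SE 0.41, interval 0.74 to 2.67, adjusted p = 0.0388). The median difference over the 4 Arg probes was 1.92, beside 0.03 over all 41 probes. The set of called probes depended on the setting. Not all Arg probes were called without the Trp or the Trp/Phe/Tyr experiment, without either culture of the latter, or with the same strain only. Probes other than Arg were also called with the same strain only, with 1 variance for all probes and without the wild-type His culture. On Cy5 arrays alone Arg-10 and Arg-12 were called, at 1.70 and 1.78 (adjusted p = 0.0107 each), while Arg-9 differed by 0.61 (adjusted p = 0.143) and Arg-11 by 0.96 (adjusted p = 0.0814). Without the wild-type Trp culture, Arg-9 and Arg-12 missed the threshold, at an adjusted p of 0.0529 and 0.0775.

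At 15 min in the gcn2Δ strain none of the 41 probes was called by limma for the difference between ornithine and no ornithine (0%), and 5 had an unadjusted p below 0.05. Arg-9 was one of them, higher with ornithine by 1.62 (SE 0.53, interval 0.40 to 2.84, adjusted p = 0.208). Arg-10 differed by 0.35, Arg-11 by 0.89 and Arg-12 by 0.92, and the intervals of these 3 included 0. The other 4 probes below the unadjusted threshold were Asp-3, Glu-3, Lys-4 and Tyr-3. With arrays averaged, Arg-9, Asp-3 and Lys-4 were called, but there the ornithine culture stayed 1 Cy3 array. Most cultures it was set against became means of 2 arrays, which would have a smaller spread.

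**Figure D2:**
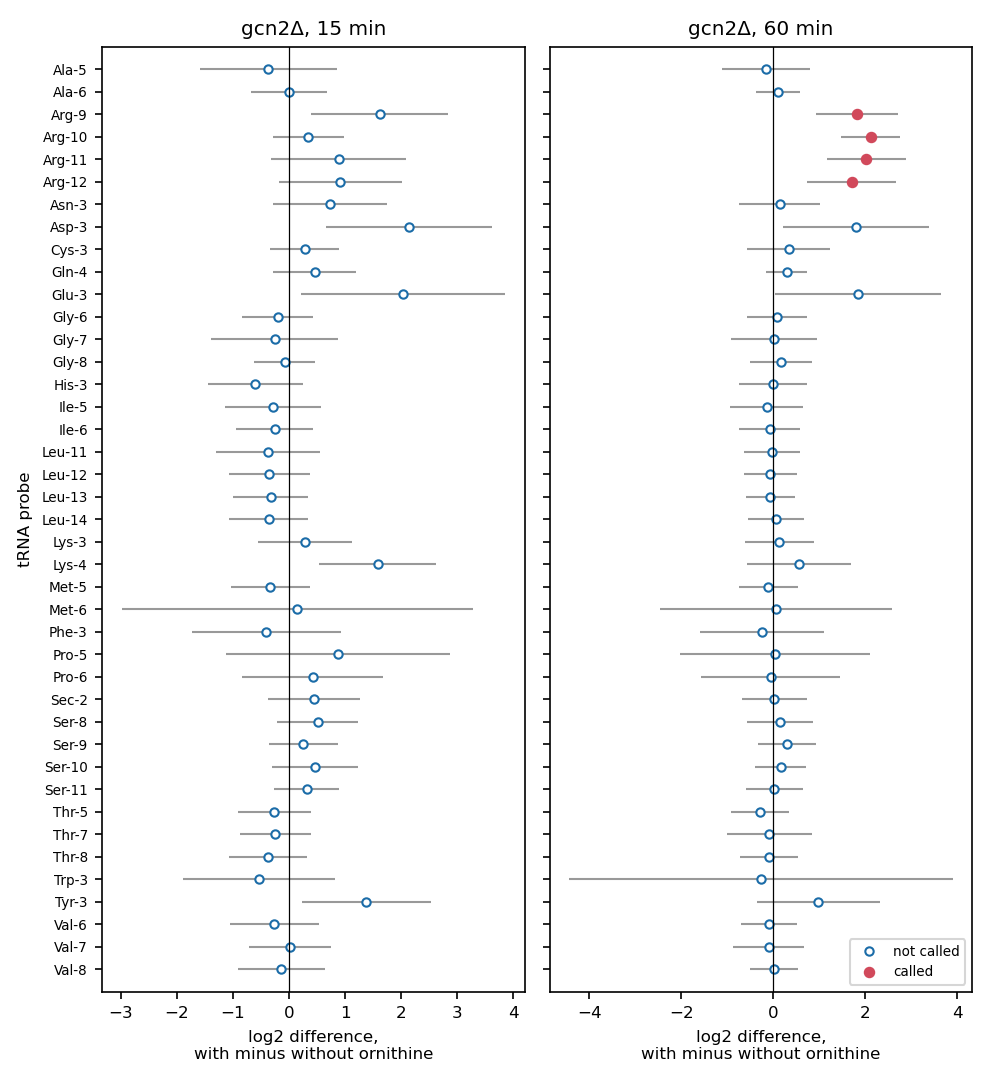
Difference in log2 charging change between the gcn2Δ cultures with and without ornithine (horizontal axis, points, with 95% intervals from limma as lines) for each of the 41 probes (vertical axis), at 15 min on the left and 60 min on the right, on arrays with total tRNA in Cy3. Filled points are called, and at 60 min they are the 4 Arg probes, at 1.70 to 2.11, while at 15 min none is called and Asp-3, Glu-3, Arg-9, Lys-4 and Tyr-3 lie farthest to the right.

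In wild-type cells in the same medium the Arg tRNAs stayed near the charging of the reference. At 15 min Arg-12, Arg-11, Arg-10 and Arg-9 read -0.14, -0.15, 0.02 and 0.09, with a mean of -0.05. At 60 min they read -0.28, -0.37, -0.08 and -0.29, with a mean of -0.26, which is 1.19-fold below the reference. Counted from the lowest of 41 probes, they ranked 5, 1, 15 and 4 at 60 min, in the same order. Arg-11 was thus the lowest probe of that array. At 15 min the ranks were 4, 2, 29 and 36. Without ornithine the wild-type means were -0.05 at 15 min and 0.03 at 60 min on Cy3 arrays, and -0.03 and -0.28 on Cy5 arrays. Against the comparison cultures none of the 41 probes was called by limma in wild-type cells at either time (0%), and none had an unadjusted p below 0.05. The same counts held for ornithine minus no ornithine in wild-type cells. For the Arg probes at 60 min that difference ran from -0.53 for Arg-9 (interval -1.42 to 0.36) to -0.02 for Arg-10 (interval -0.67 to 0.63), so differences of this size were not detectable with 1 culture.

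Whether the strains differed was tested on the gcn2Δ minus wild-type difference, set against the same difference in the 3 comparison experiments. At 60 min the strains differed in log2 charging change by -0.32 for Arg-12, -0.69 for Arg-11, -1.11 for Arg-10 and -0.87 for Arg-9, so each was lower in gcn2Δ cells. Relative to the comparison experiments these differences were 0.05, -0.42, -1.32 and -0.90 in the same order, and none of 41 probes was called by limma (0%, with 1 at an unadjusted p below 0.05). The smallest adjusted p was 0.627, for Arg-10 (interval -2.26 to -0.39). The sign for Arg-12 turned under other settings, among them averaged arrays (-0.19). At 15 min none was called either, and none had an unadjusted p below 0.05.

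The difference between ornithine and no ornithine at 60 min read higher in gcn2Δ cells than in wild-type cells for each Arg probe, by 2.04 for Arg-12 (interval 0.34 to 3.73), 2.30 for Arg-11 (interval 1.06 to 3.55), 2.13 for Arg-10 (interval 0.98 to 3.28) and 2.35 for Arg-9 (interval 0.55 to 4.15). None of these was called by limma (0% of 41 probes), the lowest adjusted p being 0.108, and the 4 Arg probes were the 4 with an unadjusted p below 0.05. An exact permutation test cannot go below 0.25 with 1 experiment against 3, nor below 0.143 with 1 culture against 6.

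Between 15 and 60 min, the log2 charging change in gcn2Δ cells with ornithine differed by -0.67 for Arg-12, -1.0 for Arg-11, -0.93 for Arg-10 and -1.31 for Arg-9 (60 minus 15 min). The reference array cancels in these differences of Cy3 arrays. It does not cancel with arrays averaged, where the Cy5 array enters at 60 min and the 15-min culture has none. Against the same interval in the comparison cultures the differences were -0.78, -1.20, -0.79 and -1.31 in the same order, and all 4 intervals excluded 0. None of the 41 probes was called by limma (0%, with 4 at an unadjusted p below 0.05), and the adjusted p of the Arg probes ran from 0.217 to 0.298. With arrays averaged, Arg-9, Arg-10, Arg-11 and Asn-3 were called. In wild-type cells none was called and none had an unadjusted p below 0.05.

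The Arg probes were not lowered equally. Arg-12 was the highest of the 4 on both gcn2Δ arrays at 60 min with ornithine and on both without it. With ornithine it lay 0.53 above the mean of the other 3 on the Cy3 array and 1.52 above on the Cy5 array, and without ornithine it lay 0.81 and 0.83 above on the Cy3 and Cy5 arrays. At 15 min with ornithine the order was different, with Arg-10 lowest and Arg-9 highest. The probes are not replicates of each other, and the order rests on 1 culture per condition.

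Most of the other 37 tRNAs lay near the middle of the array on the Cy3 arrays of cultures with ornithine. The SD of the log2 charging change over these 37 probes was 0.249 in gcn2Δ cells at 15 min, 0.125 in gcn2Δ cells at 60 min, 0.072 in wild-type cells at 15 min and 0.147 in wild-type cells at 60 min. The value of 0.072 was the lowest of all 46 arrays of depleted cultures, and the other 22 Cy3 arrays of the series ran from 0.174 to 0.780 with a median of 0.328. Of the 37 probes, 24 lay within 0.25 of 0 in gcn2Δ cells at 15 min, 34 in gcn2Δ cells at 60 min, 37 in wild-type cells at 15 min and 34 in wild-type cells at 60 min. None of the 37 was called in any of these cultures against the comparison cultures by limma, beside 2.44% of all 41 probes in gcn2Δ cells at 60 min and 0% in the other cultures, and in gcn2Δ cells at 15 min 1 of the 37, Lys-4, had an unadjusted p below 0.05. Other settings gave other counts. With Cy5 arrays only, those of Trp turned, 17 of the 37 were called in gcn2Δ cells at 60 min, and with comparison cultures of the same strain only, Asp-3, Lys-4 and Tyr-3 were called at 15 min.

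The Cy5 array of the gcn2Δ culture at 60 min stood apart. Its SD over the 37 probes was 0.703, the 44th of 46 in rising order, and 7 of the 37 lay within 0.25 of 0. Between the arrays of this pair, the SD of the difference over 41 probes was 0.795. As deposited this was the second largest of the 20 swapped pairs of the series, below the gcn2Δ Trp pair at 60 min with 1.48. With the Trp Cy5 arrays turned, a direction that is not settled, it was the largest and the others ran from 0.156 to 0.538. The Arg probes had the same sign on both arrays, 4 of 4. Of the other 37 probes 9 had the same sign and 26 the opposite sign. Over these 37 probes the arrays correlated at -0.48, and over all 41 at 0.49, as a description of 2 arrays of 1 culture. For those 26 probes the pair gives no direction of change at 60 min in gcn2Δ cells.

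**Figure D3:**
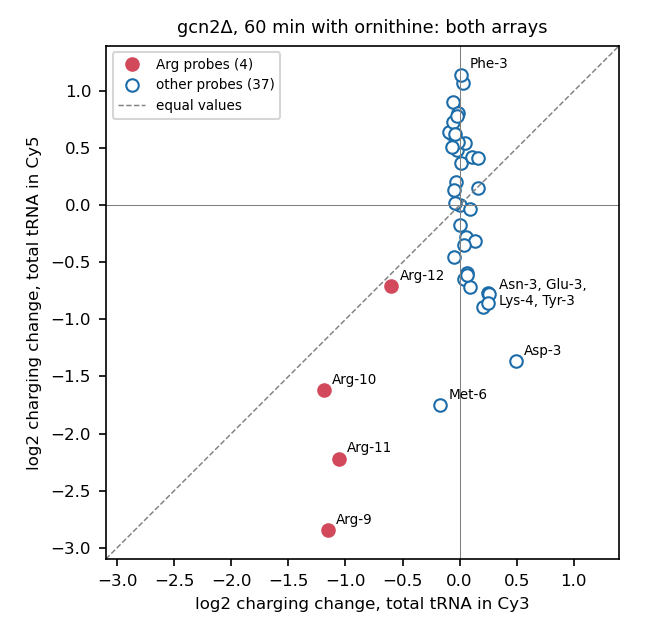
Log2 charging change on the Cy5 array (vertical axis) against the Cy3 array (horizontal axis) of the gcn2Δ culture at 60 min with ornithine, 1 point per probe, filled for the 4 Arg probes and open for the other 37. The Arg probes are below 0 on both arrays, while the others lie within a narrow band on the Cy3 axis, from -0.17 to 0.49, and spread from -1.75 to 1.14 on the Cy5 axis.

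The glutamate, glutamine, aspartate, asparagine and proline tRNAs, with 6 probes, were taken as a group. Other than asparagine, these amino acids give carbon or nitrogen to ornithine and arginine or are made from them. In gcn2Δ cells with ornithine all 6 lay above 0 on Cy3 arrays, with a median of 0.47 at 15 min and 0.16 at 60 min, and all 6 lay below 0 on the Cy5 array, with a median of -0.69. In wild-type cells the median was -0.01 at 15 min and -0.24 at 60 min, where all 6 were below 0. The median over all 41 probes was 0.00 on each array. In some comparison cultures, which kept arginine, all 6 also lay on the same side of 0. They were above 0 in the wild-type His culture at 15 min. All 6 were below 0 in the gcn2Δ His culture at both times, wild-type Trp at 15 min and wild-type Trp/Phe/Tyr at 60 min. In the remaining comparison cultures they did not all share a side. None of the 6 was called in gcn2Δ cells at 15 or 60 min, against the comparison cultures (0% of all 41 probes at 15 min and 2.44% at 60 min) or against no ornithine (0% at 15 min and 9.76% at 60 min), and with so few calls overall the count says nothing about the group.

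Within this group, Asp-3, the tRNA of the amino acid joined to citrulline, was the highest of 41 probes in gcn2Δ cells on Cy3 arrays at both times, at 0.75 and 0.49, and read -1.37 on the Cy5 array. In wild-type cells it read 0.13 at 15 min, again the highest of 41, and -0.25 at 60 min. Over the 6 comparison cultures Asp-3 ran from -0.98 to 0.72 at 15 min and from -0.76 to 0.92 at 60 min. The gcn2Δ value on the Cy3 array at 60 min thus lay within the range of other media. Without ornithine, gcn2Δ cells read -1.40 and -0.85 for Asp-3 at 15 min on Cy3 and Cy5 arrays, and -1.30 and -0.45 at 60 min. Higher values with ornithine were thus seen at 15 min, but at 60 min the Cy5 array with ornithine was below both arrays without it. The difference between ornithine and no ornithine on Cy3 arrays was 2.15 at 15 min (interval 0.67 to 3.62, adjusted p = 0.203 from limma) and 1.79 at 60 min (interval 0.21 to 3.37, adjusted p = 0.256).

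Glu-3, the tRNA of the amino acid from which ornithine is made, read 0.47 at 15 min in gcn2Δ cells with ornithine, and 0.26 on the Cy3 array and -0.78 on the Cy5 array at 60 min. Over the 6 comparison cultures Glu-3 ran from -1.20 to 0.66 at 15 min and from -0.52 to 1.15 at 60 min. Without ornithine it read -1.57 and -0.84 on Cy3 and Cy5 arrays at 15 min, and the same -1.57 and -0.84 at 60 min. The difference on Cy3 arrays was 2.03 at 15 min (adjusted p = 0.269) and 1.83 at 60 min (adjusted p = 0.324). Asn-3 read 0.57 at 15 min, and 0.25 and -0.77 on the Cy3 and Cy5 arrays at 60 min. The proline probes Pro-5 and Pro-6 read 0.47 and 0.40 at 15 min in gcn2Δ cells, and they were among the 3 lowest probes in wild-type cells at both times, at -0.32 and -0.33 at 60 min. Gln-4 read 0.08 at 15 min, and 0.06 and -0.60 on the Cy3 and Cy5 arrays at 60 min.

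Arginine enters yeast through permeases that also carry lysine and histidine. Lys-4 was the second highest probe in gcn2Δ cells at 15 min, at 0.60, and read 0.21 and -0.89 on the Cy3 and Cy5 arrays at 60 min. Over the 6 comparison cultures Lys-4 ran from -0.59 to 0.28 at 15 min and from -0.57 to 0.48 at 60 min. Without ornithine it read -0.98 and -0.79 at 15 min on Cy3 and Cy5 arrays. Its difference between ornithine and no ornithine at 15 min, 1.58 (interval 0.53 to 2.63), had an adjusted p of 0.203. Lys-3 lay closer to 0, with 0.14 at 15 min and 0.09 on the Cy3 array at 60 min in gcn2Δ cells with ornithine, and read -0.71 on the Cy5 array. His-3 was the lowest of 41 in gcn2Δ cells at 15 min, at -0.30, and read -0.06 and 0.63 on the Cy3 and Cy5 arrays at 60 min.

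The study named the Glu, Asp, Lys and Tyr tRNAs, 5 probes, for lowered charging in gcn2Δ cells depleted of arginine without ornithine. These tRNAs do not carry arginine. The probes were thus low by choice in the cultures subtracted below, so neither their direction nor higher values with ornithine are independent evidence. In gcn2Δ cells with ornithine the median of the 5 was 0.47 at 15 min, 0.25 on the Cy3 array at 60 min and -0.86 on the Cy5 array at 60 min, with all 5 on the same side of 0 each time. Some comparison cultures, which kept arginine, showed this too. All 5 were above 0 in wild-type His at 60 min. They were all below 0 in gcn2Δ His and wild-type Trp/Phe/Tyr at 60 min and wild-type Trp at 15 min. In the remaining comparison cultures they did not all share a side. Tyr-3 read 0.46 at 15 min, and 0.25 and -0.86 on the Cy3 and Cy5 arrays at 60 min. In the gcn2Δ His, Trp and Trp/Phe/Tyr cultures at 15 min Tyr-3 was itself low, at -0.635, -0.596 and -0.644. The last of them lacked tyrosine, and the call of Tyr-3 with the same strain only was made against these values. Without ornithine Tyr-3 read -0.92 and -0.72 on Cy3 and Cy5 arrays at 15 min, and -0.73 and -0.66 at 60 min. None of the 5 was called for ornithine minus no ornithine, beside 0% of all 41 probes at 15 min and 9.76% at 60 min. With arrays averaged, Asp-3 and Lys-4 were called at 15 min, where the ornithine culture was still 1 Cy3 array. At 15 min all 5 lay above both arrays without ornithine, and at 60 min all 5 did so on the Cy3 array. On the Cy5 array at 60 min Asp-3, Lys-3, Lys-4 and Tyr-3 lay below both arrays without ornithine, while Glu-3 lay above both.

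**Figure D4:**
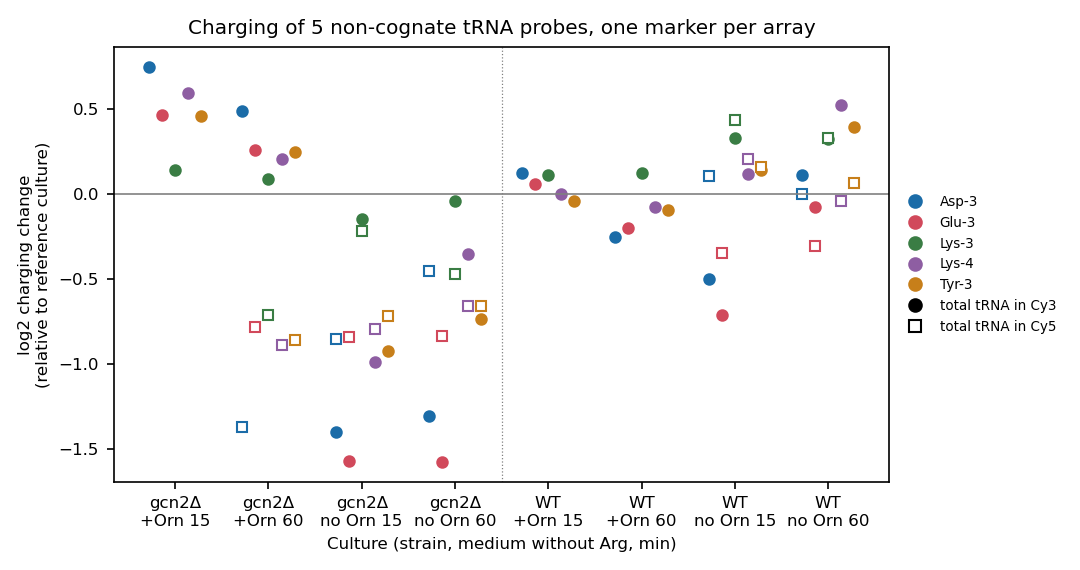
Log2 charging change of the Asp, Glu, Lys and Tyr probes (vertical axis) in each culture of the 2 experiments depleted of arginine (horizontal axis, strain, medium and minutes), with 1 marker per array, filled for total tRNA in Cy3 and open for Cy5. In gcn2Δ cells with ornithine the filled markers lie above 0 at both times, between 0.09 and 0.75, and the open markers at 60 min lie between -0.71 and -1.37.

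The 9 probes of the branched-chain amino acids leucine, isoleucine and valine had medians of -0.04 at 15 min and -0.02 at 60 min in gcn2Δ cells on Cy3 arrays, and of 0.02 and 0.11 in wild-type cells. On the Cy5 array all 9 were above 0, with a median of 0.51. The serine and threonine tRNAs, 7 probes, had medians between -0.03 and 0.18 on the 5 arrays. The 6 probes for alanine, glycine and cysteine had medians between -0.04 and 0.08, although Gly-6 and Ala-6 read 1.07 and 0.91 on the Cy5 array against 0.03 and -0.06 on the Cy3 array. Phe-3 was the highest probe on the Cy5 array, at 1.14, and read 0.01 on the Cy3 array.

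The methionine probes split on the Cy5 array. Met-5 read -0.14 at 15 min in gcn2Δ cells, and -0.09 and 0.65 on the Cy3 and Cy5 arrays at 60 min. Met-6 read -0.03 at 15 min, and -0.17 and -1.75 on the Cy3 and Cy5 arrays at 60 min, and the last of these was the third lowest value of that array, below Arg-10. Met-6 also varied widely over the comparison cultures on Cy3 arrays, from -1.10 to 1.75 at 15 min and from -1.84 to 0.81 at 60 min. The value of -1.75 lay within the range at 60 min. The files do not name which of them reads the initiator tRNA. The probe named Sec-2, whose target the files do not explain, read 0.35 at 15 min in gcn2Δ cells, and 0.11 and 0.42 on the Cy3 and Cy5 arrays at 60 min, against -0.05 and -0.23 at 15 and 60 min in wild-type cells. Leu-11 and Trp-3 were among the 3 highest probes in wild-type cells at 60 min, at 0.23 and 0.15, together with His-3 at 0.21. At 15 min the 3 highest in wild-type cells were Asp-3, Leu-13 and Ile-5, none above 0.13.

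**Figure D5:**
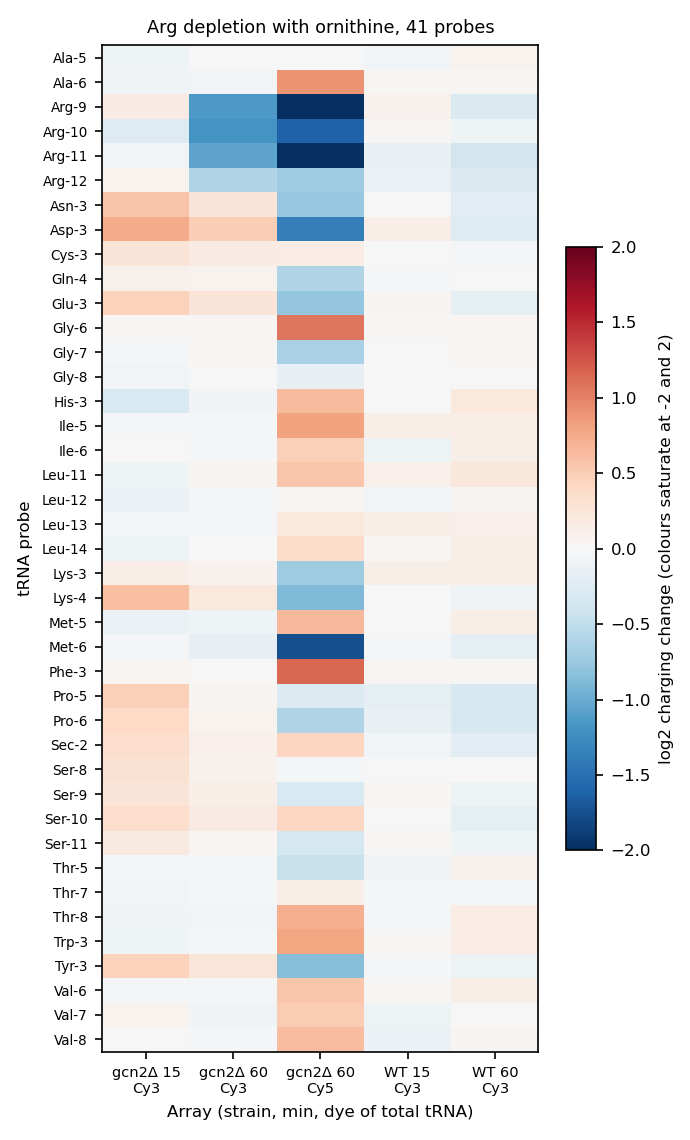
Log2 charging change of all 41 probes (vertical axis) on the 5 arrays of depleted cultures with ornithine (horizontal axis, strain, minutes and dye of total tRNA), in colour, with colours saturating at -2 and 2. The Arg probes are lowered on both gcn2Δ arrays at 60 min, the wild-type arrays are pale throughout, and the Cy5 array is the only one of the 5 with strong colours over many other tRNAs.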

How the data were processed

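Charging of tRNA was measured on 68 2-colour arrays, and 3 further arrays of the table of 71 measured abundance and were not used. The authors deposited ratio values, in which charged tRNA over total tRNA is divided by its value on the reference array of like dye orientation, scaled to a median of 1 per array. Scanner signals, intensities and background were not used here, so dim probes could not be filtered, and the number of arrays limits the precision. The log2 of each deposited ratio was taken with no pseudocount and each array was centred on its median.

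Tests used limma 3.58.1 (lmFit, eBayes) under R 4.3.3, two-sided, with Benjamini-Hochberg adjustment over 41 probes in each of 13 comparisons. Only arrays with total tRNA in Cy3 entered, because 3 of the 4 ornithine cultures have no other array and because the direction of the Trp Cy5 arrays is not settled. The lone culture was assumed to vary like the comparison cultures, and p-values measure the spread between cultures of other media, not between replicates. For ornithine minus no ornithine the third group was the 6 comparison cultures. The procedure for 1 culture against 6 was tested on simulated data with independent probes. There the lone culture was given the spread of the others, so the assumption on its spread was not tested. The 4 Arg probes, the called probes and the 3 lowest and 3 highest probes per culture were named, and other probes through the lists. Members and lists were chosen with earlier results of these data known. Alternatives were the centring, dye orientations and their averages, the choice of comparison cultures, leaving out 1 of them at a time, and the variance moderation. Growth and abundance of tRNA were not analysed here. Which anticodons the probes read is not given in the sources used here, and sequences are not shown.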

Additional observations from a re-analysis of the deposited data

How the results depend on the processing

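Counts of called tRNAs changed by more than 1.5 times under the following settings. For the gcn2Δ culture at 60 min against comparison cultures (1 called), the count was 3 with arrays averaged, whether the Trp Cy5 arrays were turned or kept as deposited (Arg-9, Arg-10 and Arg-11 in both), and 21 with Cy5 arrays only, those of Trp turned, all 4 Arg probes among them. It was 0 without the His, the Trp or the Trp/Phe/Tyr experiment, with the same strain only and with 1 variance for all probes. Leaving out each comparison culture gave 0 to 1, the call of Arg-10 being lost without the gcn2Δ His, wild-type His, wild-type Trp or gcn2Δ Trp/Phe/Tyr culture (adjusted p from 0.0528 to 0.0893). For gcn2Δ at 15 min against comparison cultures (0 called), the same strain only gave 3. For ornithine minus no ornithine in gcn2Δ at 15 min (0 called), averaged arrays gave 3 with Trp Cy5 turned and 3 as deposited, leaving out the His experiment 2, leaving out the Trp experiment 3, the same strain only 7, 1 variance 4, and leaving out each culture 0 to 4 (4 without wild-type His). At 60 min (4 called), Cy5 arrays gave 2, and leaving out each culture gave 2 to 5, with 2 (Arg-10 and Arg-11) without wild-type Trp. The strain difference had 2 calls at 15 min without the Trp experiment (Met-6 and Pro-5), and 3 at 60 min with averaged arrays and Trp Cy5 as deposited. For 60 minus 15 min in gcn2Δ (0 called), averaged arrays gave 4 under both directions of the Trp Cy5 arrays and the same strain only gave 1. The difference between ornithine and no ornithine, gcn2Δ minus wild type, had 0 calls. It had 3 with averaged arrays and Trp Cy5 as deposited, and 6 without the His experiment. The strain difference of Arg-12 at 60 min was -0.19 and -0.22, against 0.05 in the test reported, with averaged arrays (Trp Cy5 turned and as deposited), -0.26 without His and -0.10 with the Leu cultures at 45 min. The causes were not tested. Turning the Cy5 array of the gcn2Δ culture at 60 min with ornithine before averaging was added after its values were seen. It gave 0 calls against comparison cultures, and the differences became 0.11 for Arg-12, 0.62 for Arg-11, 0.18 for Arg-10 and 0.98 for Arg-9, while all 4 Arg probes stayed higher than without ornithine, by 2.45 to 4.06. With 1 array for 3 of the 4 ornithine cultures, dye effects could not be averaged out, and signal over background was not analysed here. Under averaging these 3 stayed single Cy3 arrays, while most comparison cultures became means of 2 arrays, which would have a smaller spread.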

Other observations

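The pattern of the 37 probes other than Arg was compared between arrays as a description, since genes on an array are not independent and arrays share reference arrays. In gcn2Δ cells with ornithine, the Cy3 arrays at 15 and 60 min, which share a reference array, correlated at 0.87. The 15-min array correlated at -0.79 and -0.83 with the Cy3 and Cy5 arrays of gcn2Δ cells at 15 min without ornithine. The Cy5 array of gcn2Δ cells at 60 min with ornithine correlated with the 4 arrays of gcn2Δ cells without ornithine at 0.51 to 0.70. The wild-type array at 60 min with ornithine correlated at -0.80 with the gcn2Δ array at 15 min with ornithine, and at 0.58 with the gcn2Δ Cy5 array. The directions of the arrays named here were kept as deposited, and the cause of the opposed patterns was not tested.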
